A study of Mus musculus with 12 samples.

Results

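The heat-shock chaperones described here were 10 genes, Hspa1a, Hspa1b, Hspa8, Hsph1, Dnajb1, Hsp90aa1, Hsp90ab1, Hspd1, Hspe1 and Hspb1, chosen by name and found, 10 of 10, among the 53465 genes of the expression table. They were measured by RNA-seq in LSKs, the Lin- Sca-1+ c-Kit+ fraction of mouse bone marrow that holds the hematopoietic stem cells and multipotent progenitors. There were 12 libraries in 4 groups of 3, namely untreated Tespa1+/+, untreated Tespa1-/-, and LSKs of either genotype taken at day 9 from mice given the antimetabolite 5-fluorouracil (5-FU). The 5-FU was a single injection of 150 mg/kg. Tespa1-/- mice carried the B6.129S-Tespa1tm1Smoc allele, backcrossed to C57BL/6 for more than 6 generations, and the labels call the Tespa1+/+ mice littermates. The study's mice were male and 8 to 10 weeks old, apart from an aged cohort. The sources name no tissue-specific driver for the deletion. The sources used here do not say how many mice went into a library, so p-values measure the spread between these libraries, which may in part be technical.

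Heat-shock proteins are molecular chaperones that keep other proteins folded. HSP70 proteins bind unfolded stretches, J-domain proteins hand them clients and trigger ATP hydrolysis, and HSP110 proteins recharge HSP70 with ATP. HSP90 proteins act later, on nearly folded clients such as kinases and steroid receptors, while the chaperonin HSP60 with its lid HSP10 folds proteins inside mitochondria. Many of these genes are switched on by heat shock factor 1 (HSF1), which binds heat shock elements, inverted repeats of the unit GAA. Some members are made at all times in nearly every cell, whereas others are low until stress.

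Promoter sequences are shown for 4 of the genes: Hspa1a and Hspa1b, which had the largest falls with 5-FU among the members, Hsph1, which differed between the genotypes in both treatments, and Hspe1, which was called in no comparison. They are RefSeq promoters on GRCm38.p6, from 250 bases before the transcription start to 50 after it, with the GAA and TTC units of each match in capitals. A match was a pair, GAANNTTC or TTCNNGAA, or a triplet, GAANNTTCNNGAA or TTCNNGAANNTTC. Each pair reads the same on either strand and the 2 triplets are each other's reverse complement, so that both strands were covered. Each triplet contains 2 overlapping pairs. The Hspa1a promoter lies at chr17:34972107-34972406, minus strand, the Hspa1b promoter at chr17:34959189-34959488, minus strand, the Hsph1 promoter at chr5:149636287-149636586, minus strand, and the Hspe1 promoter at chr1:55087898-55088197, plus strand.
Hspa1a: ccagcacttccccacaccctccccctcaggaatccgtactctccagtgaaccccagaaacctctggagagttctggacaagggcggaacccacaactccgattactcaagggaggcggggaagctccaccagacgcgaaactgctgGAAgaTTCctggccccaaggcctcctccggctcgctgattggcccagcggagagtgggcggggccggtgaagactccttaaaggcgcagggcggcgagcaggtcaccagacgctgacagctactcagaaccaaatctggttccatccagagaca
Hspa1b: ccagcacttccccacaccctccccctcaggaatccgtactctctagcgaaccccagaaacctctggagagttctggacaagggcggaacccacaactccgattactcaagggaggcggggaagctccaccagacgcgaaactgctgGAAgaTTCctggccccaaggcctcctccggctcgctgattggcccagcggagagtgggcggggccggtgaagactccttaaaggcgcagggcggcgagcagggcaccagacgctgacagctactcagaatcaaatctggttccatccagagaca
Hsph1: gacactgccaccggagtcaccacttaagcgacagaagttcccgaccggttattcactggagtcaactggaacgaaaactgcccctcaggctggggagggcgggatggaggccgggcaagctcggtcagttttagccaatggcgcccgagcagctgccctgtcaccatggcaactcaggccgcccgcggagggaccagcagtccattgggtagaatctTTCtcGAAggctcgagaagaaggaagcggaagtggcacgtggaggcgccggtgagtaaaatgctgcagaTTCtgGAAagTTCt
Hspe1: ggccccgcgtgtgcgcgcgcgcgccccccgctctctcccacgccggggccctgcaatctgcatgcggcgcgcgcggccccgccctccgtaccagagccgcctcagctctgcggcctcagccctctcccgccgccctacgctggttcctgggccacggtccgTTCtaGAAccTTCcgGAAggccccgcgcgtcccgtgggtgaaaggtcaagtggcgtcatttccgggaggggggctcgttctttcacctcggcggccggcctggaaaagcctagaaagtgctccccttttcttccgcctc

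The Hspa1a and Hspa1b promoters were identical at 296 of 300 bases, and each held 1 pair, from -104 to -97 relative to the start. The Hsph1 promoter held 3 pairs, of which 2 formed a triplet from 36 to 48 after the start, and a second annotated start of Hsph1 had the same matches. Hspe1 held 3 pairs and 2 triplets that together ran from -89 to -72. Hspd1 and Hspe1 are transcribed away from each other, and 285 of the 300 bases of the promoter of the second Hspd1 start are the Hspe1 promoter read on the other strand. Hspb1 held 2 pairs, whereas neither of the 2 Dnajb1 promoters nor the first Hspd1 promoter held any. Of 32544 distinct mouse promoters of the same length, 15.1% held a pair and 0.608% a triplet. GAANNTTC was in 7.89%, TTCNNGAA in 8.55%, GAANNTTCNNGAA in 0.313% and TTCNNGAANNTTC in 0.323%. A match is a description of the letters and was not tested as a binding site. Only these exact letters and spacings were searched. A promoter without a match was thus not shown to lack a heat shock element.

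**Figure D1:**
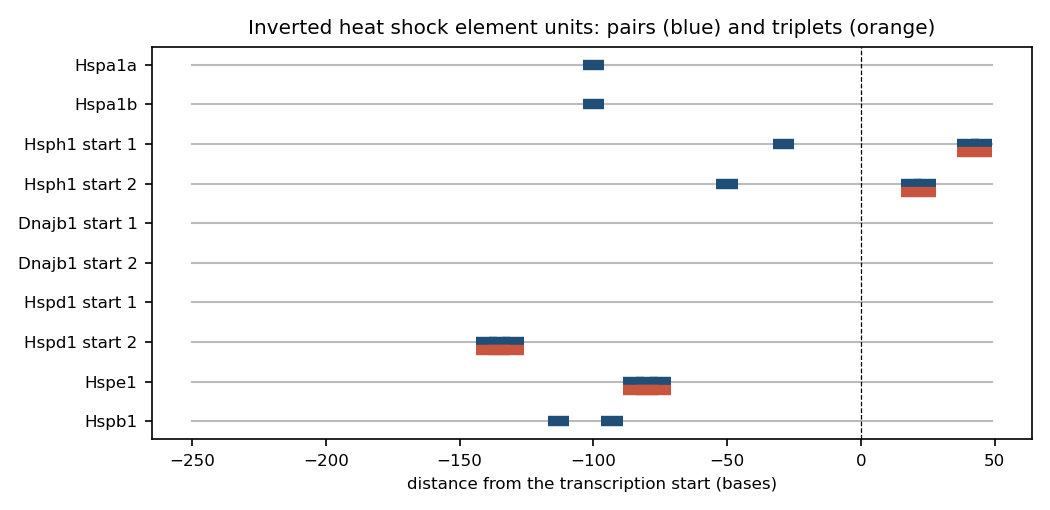
Positions of heat shock element pairs (blue) and triplets (orange) along the 10 promoters of 7 of the chaperones, in bases from the transcription start (dashed line). Hspa1a and Hspa1b have 1 pair at the same place, Hspe1 and the second Hspd1 start hold 3 pairs and 2 triplets, and Dnajb1 has no exact match of these letters.

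Levels are given as CPM, the counts a gene would have in a library of 1000000 counts, scaled with TMM factors over the 12 libraries. Library totals ran from 22118154 to 28275079 counts, so that the detection limit of 3 counts was 0.106 to 0.136 CPM, which covers counting error only. Replicates varied more than counting alone would give, since the median chi-square over genes was 2.08 to 5.87 between pairs of libraries of a group, against 0.455 from sampling. The spread was unequal, at 2.08 to 2.47 within untreated Tespa1-/- LSKs and 4.17 to 5.87 within the other groups. The deleted gene Tespa1 was at 46.5 ± 3.41 CPM (SD, n = 3) in untreated Tespa1+/+ and 34.8 ± 0.235 CPM (SD, n = 3) in untreated Tespa1-/- LSKs, a log2 fold change of -0.42 (adjusted p = 0.0316, edgeR) that was lost in 5 of the 6 fits that left out 1 library, all but that without untreated Tespa1+/+ library 2. After 5-FU it was at 53.2 ± 5.37 CPM (SD, n = 3) and 19.3 ± 1.82 CPM (SD, n = 3), a log2 fold change of -1.47 (adjusted p = 9.4e-05, edgeR). The libraries labelled Tespa1-/- thus held 0.749 of the Tespa1+/+ level of Tespa1 RNA untreated and 0.362 after 5-FU, so the transcript was not absent in either. The counts cover the whole gene and the exons removed in the allele are not given in the sources used here, so the deleted part was not looked at and these counts do not check the genotype labels. The sort genes Kit and Ly6a, which encode c-Kit and Sca-1, summed to 405 to 457 CPM in untreated Tespa1+/+, 372 to 392 CPM in untreated Tespa1-/-, 481 to 519 CPM in treated Tespa1+/+ and 339 to 369.6 CPM in treated Tespa1-/- libraries. After 5-FU both were lower in Tespa1-/- LSKs, Kit with a log2 fold change of -0.45 (adjusted p = 0.00022, edgeR) and Ly6a with -1.24 (adjusted p = 0.0265, edgeR).

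Markers of other cells moved with the groups. The 10 late neutrophil markers summed to between 1058 and 1061 CPM in the Tespa1-/- libraries after 5-FU, against at most 8.42 CPM in any other library, and Cd177 was at 0 in the other groups. The 11 erythroid markers summed to between 752 and 789 CPM in that group, against 256 to 279.9 CPM in Tespa1+/+ after 5-FU and 148 to 187 CPM in the untreated groups. The 15 G2/M genes summed to between 4638 and 4742 CPM in Tespa1-/- after 5-FU and to at most 3378 CPM elsewhere. The 20 immediate-early genes summed to 12584 to 12989.8 CPM in untreated Tespa1+/+ LSKs, 8617 to 8785 CPM in untreated Tespa1-/- LSKs, 8533 to 8564 CPM in Tespa1+/+ after 5-FU and 6886 to 7123 CPM in Tespa1-/- after 5-FU. The 5 B cell markers summed to 181 to 211 CPM after 5-FU and to 29.2 to 48.6 CPM before. The 6 stem and multipotent markers summed to 1088 to 1136 CPM in untreated Tespa1+/+, 888 to 914 CPM in untreated Tespa1-/-, 758 to 775 CPM in treated Tespa1+/+ and 405 to 450.3 CPM in treated Tespa1-/- libraries. The median sum of the 5 megakaryocyte markers was 35.6, 61.4, 112 and 169 CPM in the same order, and no 2 groups overlapped. Transcripts of the mitochondrial genome took 8.15% to 8.71% of the counts in treated Tespa1-/- libraries and 9.42% to 10.2% in the others. The part of these shifts in the chaperone results below was not tested, and in bulk libraries fewer cells of a type and less RNA per cell cannot be told apart.

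The chaperones covered a wide range of levels. By the deposited FPKM, which is per length, untreated Tespa1+/+ LSKs held most Hsp90ab1, at 796 ± 42.2 FPKM (SD, n = 3), followed by Hspa8 at 197 ± 8.01 FPKM (SD, n = 3). Hsp90aa1 at 92.9 ± 8.48 FPKM and Hspd1 at 79.4 ± 8.18 FPKM came next and overlapped between libraries (SD, n = 3). Below them stood Hspe1 at 58.1 FPKM, Dnajb1 at 40.7 FPKM and Hspa1b at 29.5 FPKM, each apart from its neighbours. Hspa1a at 12.1 FPKM and Hsph1 at 12 FPKM overlapped, and Hspb1 was lowest at 0.21 FPKM. After 5-FU the order of the first 6 genes was unchanged in both genotypes, but Hspa1b came down to the level of Hsph1. These were at 8.65 ± 1.98 and 9.0 ± 0.471 FPKM in Tespa1+/+ LSKs, with overlapping libraries, and at 12.5 ± 2.02 and 11.6 ± 0.314 FPKM in Tespa1-/- LSKs, again overlapping (SD, n = 3). Together the 10 genes took 7842 ± 310 CPM in untreated Tespa1+/+ LSKs, or 0.784% of the scaled total, and 6277 ± 104 CPM or 0.628% after 5-FU (SD, n = 3). In Tespa1-/- LSKs the sums were 7937 ± 108 and 6321 ± 291 CPM (SD, n = 3), so the genotypes overlapped in both treatments.

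The response to 5-FU was a fall in most of the chaperones, and it was steepest for the inducible HSP70 pair. In Tespa1+/+ LSKs 6 of the 10 genes were called lower after 5-FU at an adjusted p below 0.05 (edgeR's quasi-likelihood test, Benjamini-Hochberg adjustment over all genes), where 4.18% of all genes tested were called lower, and 0 were called higher. In Tespa1-/- LSKs 6 of the 9 genes tested were called lower, where 8.64% of all genes were, and 0 were called higher. No member was higher at an unadjusted p below 0.05 or by DESeq2 in either genotype, so those counts are 0 and 0, where 3.77% of all genes were called higher in Tespa1+/+ and 10.7% in Tespa1-/- LSKs. All treated libraries were below all untreated ones for 6 of the 10 genes in Tespa1+/+, against 14.5% of all genes, and for 6 in Tespa1-/- LSKs, against 18.1%. By the rule used in the study, an unadjusted P below 0.05 with more than a 1.5-fold change, 2 members were lower in Tespa1+/+ LSKs (background 3.54%), Hspa1a and Hspa1b, and 3 in Tespa1-/- LSKs (background 6.58%), those and Hsph1. The median log2 fold change of the members was -0.35 in Tespa1+/+ and -0.42 in Tespa1-/- LSKs, against 0.01 and -0.01 over all genes tested. These comparisons and those between genotypes share libraries, so their values are given side by side only.

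Hspa1a (ENSMUSG00000091971) and Hspa1b (ENSMUSG00000090877) encode the stress-inducible HSP70. They lie close together on chromosome 17 (GRCm38), from 34969190 to 34972156 and from 34956436 to 34959238, both on the minus strand. Hspa1b was at 85.3, 81.1 and 85.2 CPM in the untreated Tespa1+/+ libraries and at 111, 119 and 109 CPM in the untreated Tespa1-/- libraries. After 5-FU it was at 26.0, 27.8 and 17.6 CPM in Tespa1+/+ and at 30.3, 41.5 and 33.5 CPM in Tespa1-/- libraries. All Tespa1-/- libraries were thus above all Tespa1+/+ libraries in each treatment, and all treated libraries were below all untreated ones. Hspa1b fell 3.52-fold with 5-FU in Tespa1+/+ LSKs (log2 fold change -1.82, SE 0.16, adjusted p = 0.00019, edgeR) and 3.24-fold in Tespa1-/- LSKs (-1.70, SE 0.11, adjusted p = 1.9e-05, edgeR).

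Hspa1a was at 34.6, 31.9 and 42.8 CPM in untreated Tespa1+/+, at 41.0, 38.0 and 39.1 CPM in untreated Tespa1-/-, at 12.7, 10.6 and 8.8 CPM in treated Tespa1+/+ and at 19.5, 12.1 and 13.5 CPM in treated Tespa1-/- libraries. The genotypes overlapped in each treatment, whereas the treatments did not overlap in either genotype. Hspa1a fell 3.4-fold with 5-FU in Tespa1+/+ LSKs (-1.76, SE 0.18, adjusted p = 0.00049, edgeR) and 2.63-fold in Tespa1-/- LSKs (-1.40, SE 0.17, adjusted p = 0.00068, edgeR). Hspa1b made up 69.8 ± 2.82% of the counts of the pair in untreated Tespa1+/+ and 74.2 ± 1.45% in untreated Tespa1-/- LSKs, and 68.7 ± 3.14% and 69.8 ± 8.36% after 5-FU (SD, n = 3). The transcripts are near-copies: 58.8% of all 50-base words of Hspa1a also occur in Hspa1b, so the split of reads between them is uncertain. Hspa1l, a testis-enriched HSP70 next to them in the same cluster, fell with 5-FU as well, by 1.83 on the log2 scale in Tespa1+/+ (adjusted p = 0.0318, edgeR, lost in 4 of the 6 fits that left out 1 library) and by 1.23 in Tespa1-/- LSKs (adjusted p = 0.011, lost in 1 of 6). It shared 7.95% of the words of Hspa1a.

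Hspa8 (ENSMUSG00000015656, chromosome 9 from 40800984 to 40810087) encodes the constitutive HSP70, also called HSC70. It was at 1915, 1839 and 1781 CPM in untreated Tespa1+/+ and 1849, 1847 and 1824 CPM in untreated Tespa1-/- libraries. After 5-FU it was at 1326, 1259 and 1336 CPM in Tespa1+/+ and 1343, 1361 and 1382 CPM in Tespa1-/- libraries. The treated libraries were all below the untreated ones, with a fall of 0.50 on the log2 scale in Tespa1+/+ (SE 0.04, adjusted p = 7.6e-05, edgeR) and of 0.45 in Tespa1-/- LSKs (SE 0.02, adjusted p = 4.4e-06, edgeR). In absolute terms this was the second most abundant of the chaperones, and its fall was a smaller fold than that of the inducible pair in each genotype.

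Hsph1 (ENSMUSG00000029657, chromosome 5 from 149614287 to 149636376, minus strand) encodes HSP110, the nucleotide exchange factor of HSP70. It was at 129, 154 and 129.8 CPM in untreated Tespa1+/+, at 214, 203 and 201 CPM in untreated Tespa1-/-, at 103, 103 and 93.3 CPM in treated Tespa1+/+ and at 134, 128 and 131 CPM in treated Tespa1-/- libraries. Treated libraries were below untreated ones in each genotype, and Tespa1-/- libraries were above Tespa1+/+ ones in each treatment. With 5-FU, Hsph1 fell in Tespa1-/- LSKs (log2 fold change -0.66, SE 0.05, adjusted p = 4.2e-05, edgeR). It also fell in Tespa1+/+ LSKs (-0.46, SE 0.09, adjusted p = 0.0128, edgeR), and this call was lost without treated Tespa1+/+ library 3 (adjusted p = 0.0598). None of its 50-base words occurs in another gene, so its reads are not shared in that sense.

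Dnajb1 (ENSMUSG00000005483, chromosome 8 from 83608193 to 83612653) encodes HSP40, the J-domain partner of HSP70. Its levels were 138, 119 and 139 CPM in untreated Tespa1+/+, 149, 138 and 132 CPM in untreated Tespa1-/-, 120.2, 112 and 118 CPM in treated Tespa1+/+ and 102, 115 and 98.9 CPM in treated Tespa1-/- libraries. The treated libraries lay below the untreated ones in Tespa1-/- and overlapped with them in Tespa1+/+. Dnajb1 fell with 5-FU in Tespa1-/- LSKs (-0.42, SE 0.07, adjusted p = 0.00439, edgeR), while in Tespa1+/+ LSKs the log2 fold change was -0.18 (SE 0.08, adjusted p = 0.24, edgeR). The test of the difference between those responses gave -0.23 (SE 0.11, adjusted p = 0.293, edgeR), so they were not shown to differ.

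Hsp90ab1 (ENSMUSG00000023944, chromosome 17 from 45567775 to 45573271, minus strand) encodes the constitutive HSP90 beta and was the most abundant member. It stood at 4895, 4658 and 4437 CPM in untreated Tespa1+/+, 4746, 4722 and 4671 CPM in untreated Tespa1-/-, 3892, 4014 and 4046 CPM in treated Tespa1+/+ and 3552, 3992 and 3915 CPM in treated Tespa1-/- libraries. The treated libraries were all below the untreated ones. The fall was 0.23 on the log2 scale in Tespa1+/+ (SE 0.03, adjusted p = 0.00364, edgeR) and 0.32 in Tespa1-/- LSKs (SE 0.04, adjusted p = 0.00064, edgeR). Hsp90aa1 (ENSMUSG00000021270, chromosome 12 from 110690605 to 110702728, minus strand), which encodes the inducible HSP90 alpha, was at 660.5, 637 and 557 CPM in untreated Tespa1+/+ and 417, 481 and 498 CPM in treated Tespa1+/+ libraries, and it fell by 0.41 (SE 0.08, adjusted p = 0.0151, edgeR). That call was lost without untreated Tespa1+/+ library 2 (adjusted p = 0.0605) and without treated Tespa1+/+ library 1 (adjusted p = 0.05). In Tespa1-/- libraries Hsp90aa1 was at 558, 634 and 530.3 CPM untreated and 518, 569 and 545 CPM treated. These overlapped, with a log2 fold change of -0.09 (SE 0.07, adjusted p = 0.391, edgeR).

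Hspd1 (ENSMUSG00000025980, chromosome 1 from 55077835 to 55088243, minus strand) encodes mitochondrial HSP60 and Hspe1 (ENSMUSG00000073676, chromosome 1 from 55088132 to 55091307, plus strand) its lid HSP10. Hspd1 was at 196, 235 and 239 CPM in untreated Tespa1+/+, 215, 210.4 and 200.4 CPM in untreated Tespa1-/-, 175, 196 and 174 CPM in treated Tespa1+/+ and 206, 206 and 216 CPM in treated Tespa1-/- libraries. Hspe1 ranged from 80.8 to 116 CPM over the 12 libraries. Neither gene was called with 5-FU in either genotype, and treated and untreated libraries overlapped in each. The log2 fold changes in Tespa1+/+ LSKs were -0.30 (SE 0.09, adjusted p = 0.0783) for Hspd1 and -0.22 (SE 0.10, adjusted p = 0.262) for Hspe1, and in Tespa1-/- LSKs -0.01 (SE 0.05, adjusted p = 0.931) and -0.05 (SE 0.11, adjusted p = 0.774), all by edgeR. The Tespa1+/+ value of Hspd1 passed with DESeq2 (adjusted p = 0.0204), with all 12 libraries in 1 fit (adjusted p = 0.0202) and without untreated Tespa1+/+ library 1 (adjusted p = 0.0204). The genes overlap by 112 bases on opposite strands, and although the kit keeps strand information, the sources used here do not say whether the counting used it.

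Hspb1 (ENSMUSG00000004951, chromosome 5 from 135887919 to 135889563) encodes the small heat-shock protein HSP25, which holds unfolded proteins without ATP. It had 9, 14 and 5 counts in untreated Tespa1+/+, 0, 17 and 0 in untreated Tespa1-/-, 25, 3 and 12 in treated Tespa1+/+ and 8, 0 and 0 in treated Tespa1-/- libraries. The groups overlapped in all 4 comparisons. It passed the filter on low counts in Tespa1+/+ LSKs only, where the log2 fold change with 5-FU was 0.44 (SE 0.94, adjusted p = 0.843, edgeR), and in the fit of all 12 libraries, so no difference was detectable at this depth.

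**Figure D2:**
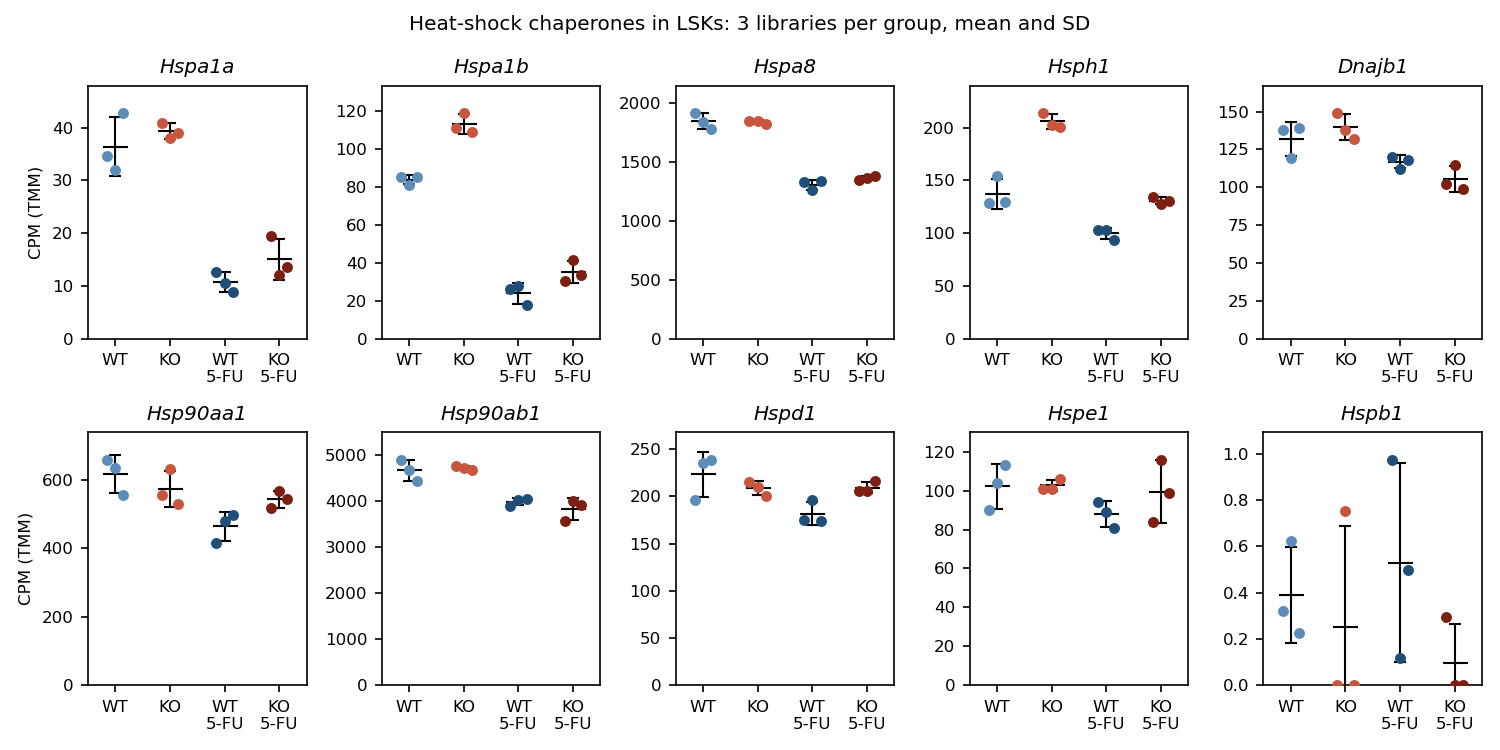
CPM (TMM-scaled) of the 10 chaperones in each of the 12 libraries, with WT for Tespa1+/+ and KO for Tespa1-/-. Points are libraries, and the bars give the mean and SD of 3. Hspa1a, Hspa1b, Hspa8, Hsph1 and Hsp90ab1 lie lower in every treated library than in every untreated library of the same genotype, and Hsph1 lies higher in Tespa1-/- than in Tespa1+/+ libraries in each treatment.

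Few of these genes differed between the genotypes in untreated LSKs, where Hsph1 and Hspa1b were higher in the libraries labelled Tespa1-/-, which kept 0.749 of the Tespa1 RNA level. Of the 9 members tested, 2 were called higher, where 1.64% of all genes were, and 0 were called lower, where 3.59% were. By the study's rule 1 was higher, Hsph1 (background 3.54%). The 2 genes called were also those with all Tespa1-/- libraries above all Tespa1+/+ libraries, which held for 12.3% of all genes. No member was lower at an unadjusted p below 0.05 or by DESeq2. Hsph1 rose 1.5-fold (log2 fold change 0.59, SE 0.08, adjusted p = 0.00389, edgeR), from 137 ± 14.1 to 206 ± 6.95 CPM (SD, n = 3). Hspa1b rose 1.35-fold (0.43, SE 0.06, adjusted p = 0.00654, edgeR), from 83.9 ± 2.43 to 113 ± 5.29 CPM (SD, n = 3), and this call was lost with all 12 libraries in 1 fit (adjusted p = 0.115). The remaining 7 had log2 fold changes between -0.10 and 0.11 with adjusted p-values of at least 0.556. The median over the 9 genes was 0.02, against 0.01 over all genes tested. Marker sums also differed between these libraries without overlap. In Tespa1+/+ and Tespa1-/- libraries they were 60.5 to 77.0 and 89.5 to 95.8 CPM for macrophage, 42.7 to 48.6 and 29.2 to 33.9 CPM for B cell, 148 to 173 and 177 to 187 CPM for erythroid, 0.77 to 1.6 and 4.7 to 5.85 CPM for late neutrophil markers, and the sort, stem, megakaryocyte and immediate-early sums given above did not overlap either. Their part was not tested.

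After 5-FU 1 of the chaperones, Hsph1, was called between the genotypes, and it was higher in Tespa1-/- LSKs. Hsph1 rose 1.31-fold (0.39, SE 0.07, adjusted p = 0.00433, edgeR), from 99.5 ± 5.36 to 131 ± 3.42 CPM (SD, n = 3). That was 1 member of 9 called higher, where 7.34% of all genes were, and 0 were higher by the study's rule, where 5.79% were. None was called lower, a count of 0 against a background of 5.78%, by edgeR, by DESeq2 or at an unadjusted p below 0.05. For 5 of the 9, namely Hspa1b, Hspa8, Hsph1, Hsp90aa1 and Hspd1, all Tespa1-/- libraries were above all Tespa1+/+ libraries, which was so for 17.5% of all genes. The values that did not pass were 0.56 for Hspa1b (SE 0.19, adjusted p = 0.0899), 0.49 for Hspa1a (SE 0.23, adjusted p = 0.211), 0.22 for Hsp90aa1 (SE 0.07, adjusted p = 0.0641), 0.20 for Hspd1 (SE 0.06, adjusted p = 0.0759), 0.18 for Hspe1 (SE 0.12, adjusted p = 0.381) and 0.06 for Hspa8 (SE 0.03, adjusted p = 0.307), all by edgeR. Dnajb1 at -0.15 (SE 0.07, adjusted p = 0.226) and Hsp90ab1 at -0.06 (SE 0.04, adjusted p = 0.337) had the other sign. With 1 library left out, the values ran from 0.38 to 0.69 for Hspa1b, 0.26 to 0.63 for Hspa1a and 0.15 to 0.27 for Hsp90aa1. They ran from 0.17 to 0.26 for Hspd1, 0.05 to 0.29 for Hspe1, 0.03 to 0.07 for Hspa8, -0.22 to -0.11 for Dnajb1 and -0.10 to -0.01 for Hsp90ab1. DESeq2 called 4 members higher, adding Hspa1b (adjusted p = 0.0286), Hsp90aa1 (adjusted p = 0.0164) and Hspd1 (adjusted p = 0.0358) to Hsph1. Over all genes DESeq2 called 1627 of 17239 higher. With all 12 libraries in 1 fit Hspa1b passed (adjusted p = 0.0214, edgeR), and without treated Tespa1+/+ library 2 Hspd1 passed (0.26, adjusted p = 0.035, edgeR). The median over the 9 genes was 0.20, against -0.01 over all genes. The sort, stem, neutrophil, erythroid, megakaryocyte, immediate-early and G2/M sums and the mitochondrial share given above differ between the same libraries. So do the sums of 6 macrophage markers (51.2 to 53.7 CPM in Tespa1+/+ against 65.0 to 79.2 CPM in Tespa1-/- libraries) and of the 5 genes of the lineage panel (57.1 to 70.4 CPM against 120.3 to 128 CPM). The 5 B cell markers (181 to 187 CPM against 191 to 211 CPM) and 3 T cell markers (0.0 to 0.273 CPM against 1.85 to 3.99 CPM) did not overlap either. The part of these shifts was not tested.

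**Figure D3:**
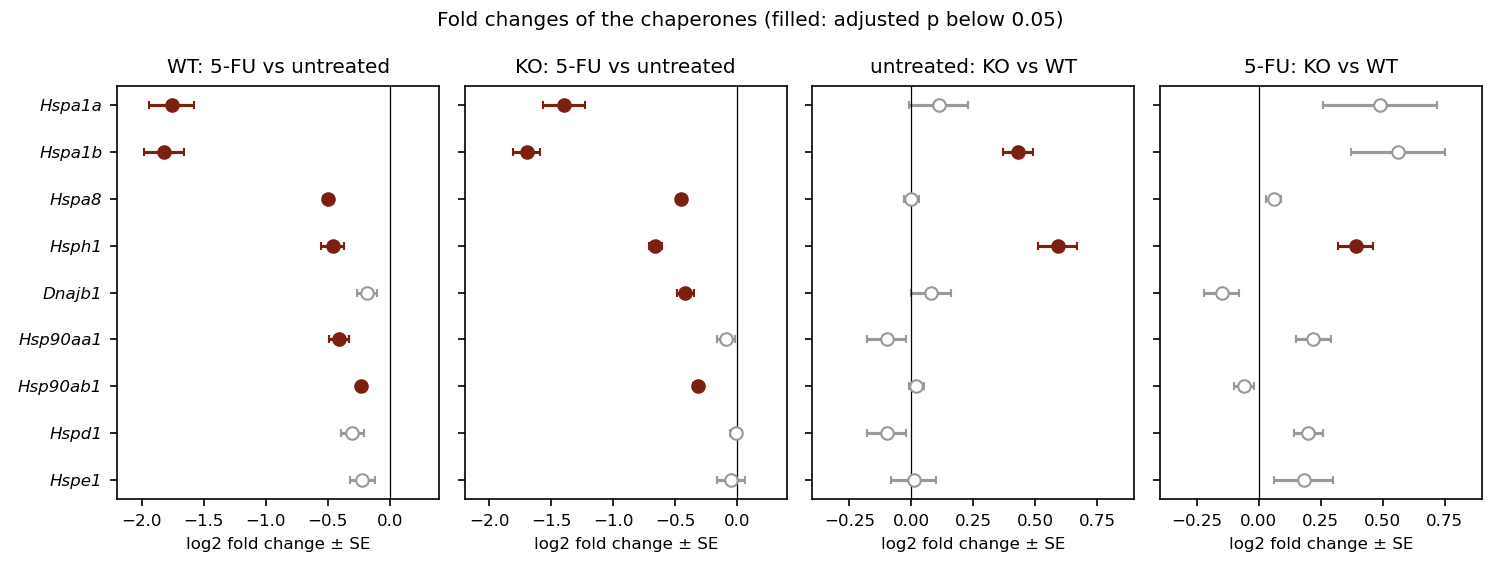
Log2 fold change ± SE (edgeR) of the 9 members other than Hspb1 in the 4 comparisons, filled where the adjusted p is below 0.05. The 2 panels on the left have a wider axis than the 2 on the right. The inducible pair Hspa1a and Hspa1b lies between -1.40 and -1.82 with 5-FU, and Hsph1 is filled in all 4 panels.

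Whether the genotype difference depended on 5-FU was tested with an interaction term over the 12 libraries. Of the 10 members, 0 were called, where 5.01% of all genes were (3.02% upward and 1.99% downward), and DESeq2 called 0 as well. At an unadjusted p below 0.05 there were 2, a threshold at which no share of all genes was taken. These were Hsp90aa1 with 0.33 (SE 0.12, adjusted p = 0.133, edgeR) and Hspd1 with 0.30 (SE 0.11, adjusted p = 0.134, edgeR). Hspd1 passed without untreated Tespa1+/+ library 1 (0.38, adjusted p = 0.024). For Hsph1 the interaction was -0.19 (SE 0.10, adjusted p = 0.354, edgeR) and for Hspa1b 0.13 (SE 0.21, adjusted p = 0.808, edgeR), so that the genotype difference of either gene was not shown to change with 5-FU. As a check on single genes, a two-sided exact permutation test of 3 libraries against 3 cannot go below p = 0.1, the value reached wherever the groups did not overlap.

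Several chaperones share sequence with predicted genes and pseudogenes, to which their reads can also be assigned. For Hsp90aa1, 41.8% of all 50-base words occur in the predicted gene Gm12346, which held 303775 counts over the 12 libraries against 160460 for Hsp90aa1 itself, and 29.9% occur in Gm5844 with 53646 counts. For Hspa8, 34.6% occur in Gm15459, with 141993 counts against 461433, and 22.7% in Gm8355, with 49117 counts. For Hspd1, 38.0% occur in Hspd1-ps3, with 48903 counts against 59808. By contrast, Hsp90ab1 shared 3.44% of its words with any other gene and Dnajb1 0.412%. For 2 of the copies the genotype comparison in untreated LSKs gave another result than for the member. Gm15459 was at 386, 399.6 and 414 CPM in untreated Tespa1+/+ and 639.9, 627 and 639 CPM in untreated Tespa1-/- libraries, a rise of 0.67 on the log2 scale (SE 0.04, adjusted p = 6.7e-05, edgeR), while Hspa8 itself differed by 0.00 between the group means on that scale. Gm5844 rose by 0.34 (SE 0.05, adjusted p = 0.00606, edgeR), while Hsp90aa1 was at -0.10 (SE 0.08, adjusted p = 0.556, edgeR). After 5-FU Gm12346, Gm15459, Gm5844 and Gm7232 were called higher in Tespa1-/- LSKs (0.18, 0.22, 0.37 and 0.66, highest adjusted p = 0.0228, edgeR). Gm8355, Gm6210, Gm26825 and Hspd1-ps3 were not called, nor were Hspa8 and Hsp90aa1 alone. With 5-FU in Tespa1+/+ LSKs Gm15459 gave 0.09 (adjusted p = 0.359, edgeR), whereas Gm8355 fell by 0.38 (adjusted p = 0.00653, edgeR). The interaction was called for Gm15459 only among the copies (-0.44, adjusted p = 0.00071, edgeR). These copies were looked at after the member values had been seen.

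When each member was summed with every gene that shared at least 10% of its words, an alternative chosen after seeing the data, more features were called between the genotypes after 5-FU. Hspa8 with its copies was at 1882, 1839 and 1931 CPM in treated Tespa1+/+ and 2017, 2038 and 2070.5 CPM in treated Tespa1-/- libraries (log2 fold change 0.11, SE 0.03, adjusted p = 0.0208, edgeR). Hsp90aa1 with its copies was at 1479.8, 1583 and 1566 CPM and at 1789.7, 1779 and 1809 CPM (0.21, SE 0.03, adjusted p = 0.0019, edgeR). The groups did not overlap for either feature. Hspd1 with Hspd1-ps3 gave 0.22 (SE 0.06, adjusted p = 0.0321, edgeR) and Hspa1a with Hspa1b gave 0.54 (SE 0.15, adjusted p = 0.0456, edgeR). With Hsph1 this made 5 features called higher after 5-FU, in a fit where 1265 genes were called higher over all. Dnajb1, Hsp90ab1, Hspe1 and Hspb1 with its copies were not called. In untreated LSKs the summed Hspa8 feature rose by 0.15 (SE 0.02, adjusted p = 0.00612, edgeR) and the Hspa1 feature by 0.34 (SE 0.06, adjusted p = 0.0189, edgeR), whereas Hsp90aa1 gave 0.08 (SE 0.04, adjusted p = 0.389) and Hspd1 -0.05 (SE 0.07, adjusted p = 0.757). With 5-FU the log2 fold change of the Hspa1 feature was -1.8 in Tespa1+/+ (adjusted p = 0.00011, edgeR) and -1.61 in Tespa1-/- LSKs (adjusted p = 1.3e-06, edgeR). Summed Hsp90aa1 also fell in Tespa1-/- LSKs, by 0.12 (SE 0.03, adjusted p = 0.0115, edgeR), where the gene alone was not called. In Tespa1+/+ LSKs the summed feature fell by 0.25 (SE 0.05, adjusted p = 0.0121, edgeR), and its interaction was 0.14 (SE 0.06, adjusted p = 0.213, edgeR).

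**Figure D4:**
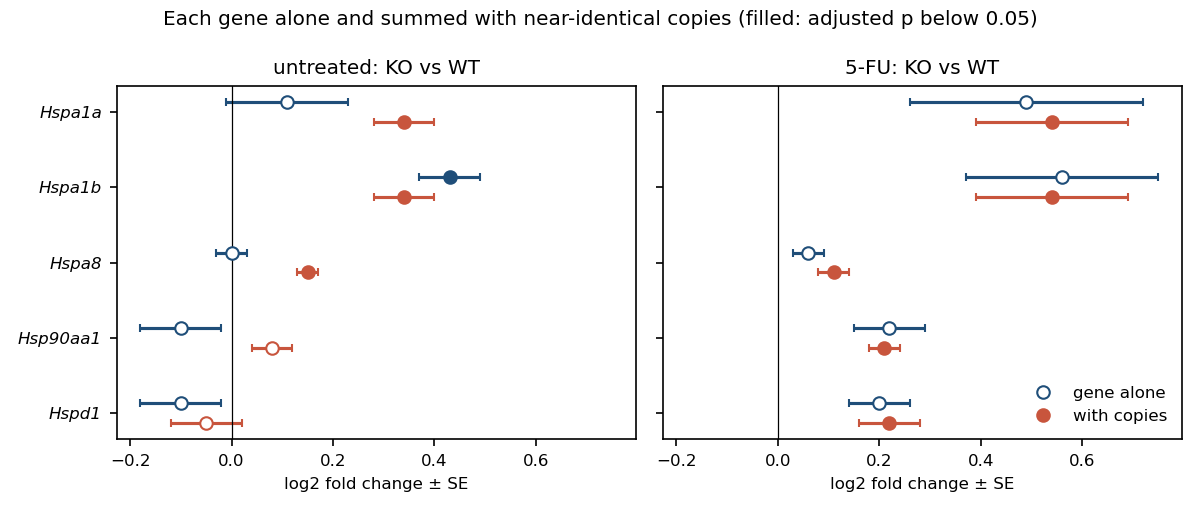
Log2 fold change ± SE (edgeR) of Tespa1-/- against Tespa1+/+ LSKs for 5 members alone (blue) and summed with near-identical copies (orange), filled where the adjusted p is below 0.05. Hspa1a and Hspa1b share 1 summed feature. Summing moves Hspa8 in untreated LSKs from 0.00 to 0.15, and after 5-FU all summed features are filled while none of these 5 genes alone is.

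The other genes of the chaperone network were taken from 10 lists of 88 genes. With 5-FU, 13 of the 79 tested were called lower in Tespa1+/+ LSKs and 0 higher, where 4.18% of all genes were called lower and 3.77% higher. However, 2 were higher at an unadjusted p below 0.05, with no share of all genes taken there. DESeq2 called 1 higher, where it called 1003 of 17002 genes higher. Leaving out any 1 library brought the 13 to between 3 and 8. The falls that held in all 6 of those fits were Hspa5 (-0.43, adjusted p = 0.00208, edgeR), the HSP70 of the endoplasmic reticulum, Hspa4 (-0.34, adjusted p = 0.00121, edgeR), an HSP110 relative, and Dnaja1 (-0.47, adjusted p = 0.00247, edgeR), a J-domain partner of Hspa8. In Tespa1-/- LSKs 19 of 81 were called lower, where 8.64% of all genes were, and 4 higher, where 10.7% were, with 9 to 16 lower when any 1 library was left out. Falls that held in each of those fits included the HSP90 co-chaperones Fkbp5 (-0.61, adjusted p = 0.00231, edgeR), Chordc1 (-0.46, adjusted p = 0.00364, edgeR) and Ptges3 (-0.43, adjusted p = 0.00057, edgeR), the last of which is the HSP90 co-chaperone p23.

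By list, the counts lower with 5-FU were 4 of 10 other HSP70 and HSP110 genes in Tespa1+/+ and 4 of 11 in Tespa1-/- LSKs, and 3 of 15 other J-domain proteins in each, where 4.18% and 8.64% of all genes were lower. Among co-chaperones they were 3 of 22 and 6 of 22, and among the subunits of TRiC, the cytosolic chaperonin, 3 of 8 and 2 of 8. Of the J-domain calls Dnaja1 held in all 6 fits that left out 1 library in each genotype, while in Tespa1+/+ LSKs Dnajb9 was lost in 4 and Dnaja2 in 2. In Tespa1-/- LSKs Dnajb4 was lost in 4 and Dnajb9 in 1. Without treated Tespa1+/+ library 3, or without untreated Tespa1-/- library 3, the count of 3 in that genotype came to 1 of the same genes. No TRiC call held in all 6 fits that left out 1 library, and in Tespa1+/+ LSKs the co-chaperones Bag6, Cdc37 and Ptges3 were lost in 6, 5 and 5 of 6. Of 5 other HSF1 target genes in Tespa1-/- LSKs, 2 were called lower and 1 higher. The higher one was Hmox1, which encodes heme oxygenase 1 (1.2, adjusted p = 0.014, edgeR, lost in 2 of the 6 fits that left out 1 library), and of the lower ones Zfand2a (-1.07, adjusted p = 0.0267, edgeR) was lost in 4 of 6. No prefoldin subunit was called among the 6 in either genotype, and no mitochondrial proteostasis gene among the 7. Of the HSF regulators, Hsf2 fell in Tespa1-/- LSKs (-0.51, adjusted p = 0.0365, edgeR, lost in 4 of the 6 fits that left out 1 library), and Hsf1 was not called in any comparison.

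Between the genotypes after 5-FU, 11 of the 80 listed genes tested were higher in Tespa1-/- LSKs and 0 lower, where 7.34% and 5.78% of all genes were. At an unadjusted p below 0.05 there were 22 and 5, a threshold at which no share of all genes was taken. DESeq2 called 16 higher and 1 lower, where it called 1627 and 1358 of 17239 genes. The count of 11 was 6 to 9 when any 1 library was left out. The rises that held in all 6 of those fits were Hsp90b1 (0.35, adjusted p = 0.00109, edgeR), Hyou1 (0.44, adjusted p = 0.00665, edgeR), Hspa5 (0.24, adjusted p = 0.00777, edgeR), Dnajc3 (0.36, adjusted p = 0.0114, edgeR) and Hspa14 (0.42, adjusted p = 0.0108, edgeR). They encode GRP94, ORP150, BiP, the co-chaperone p58IPK and a ribosome-associated HSP70, in that order. The first 4 proteins reside in the endoplasmic reticulum, but other listed genes with products there were not called. Serpinh1 had a log2 fold change of -1.55 (SE 0.65, adjusted p = 0.164, edgeR), with all Tespa1-/- libraries lower. The others were -0.42 for Dnajb9 (adjusted p = 0.0766, edgeR), -0.12 for Dnajb12, 0.08 for Dnajb14, 0.09 for Dnajc10, 0.21 for Dnajb11 and 0.24 for Hspa13. Hsp90b1 went from 637 ± 9.27 to 812 ± 43.4 CPM and Hyou1 from 147 ± 10.6 to 200 ± 16.7 CPM (SD, n = 3). In untreated LSKs 4 of 81 listed genes were called higher, where 1.64% of all genes were, and 4 lower, where 3.59% were (0 to 3 and 1 to 3 when any 1 library was left out).

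The genotype difference changed with 5-FU for 4 of the 82 listed genes tested by edgeR, all 4 upward, where 3.02% of all genes were called upward and 1.99% downward. At an unadjusted p below 0.05 there were 17 upward and 5 downward, again with no share of all genes taken. DESeq2 called 5 upward and 1 downward, where it called 869 and 666 of 18696 genes. The 4 genes called by edgeR were Hsp90b1 (0.35, SE 0.07, adjusted p = 0.0128, edgeR), Cdc37 (0.33, SE 0.06, adjusted p = 0.00893, edgeR), which brings kinases to HSP90, Dnaja4 (1.60, SE 0.33, adjusted p = 0.0134, edgeR), a J-domain protein, and Hyou1 (0.42, SE 0.11, adjusted p = 0.0429, edgeR). The first 3 held in all 12 fits that left out 1 library, and Hyou1 in 3 of 12. Dnaja4 was low throughout, at 2.78 ± 0.381 CPM in treated Tespa1+/+ and 6.87 ± 1.65 CPM in treated Tespa1-/- LSKs (SD, n = 3).

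**Figure D5:**
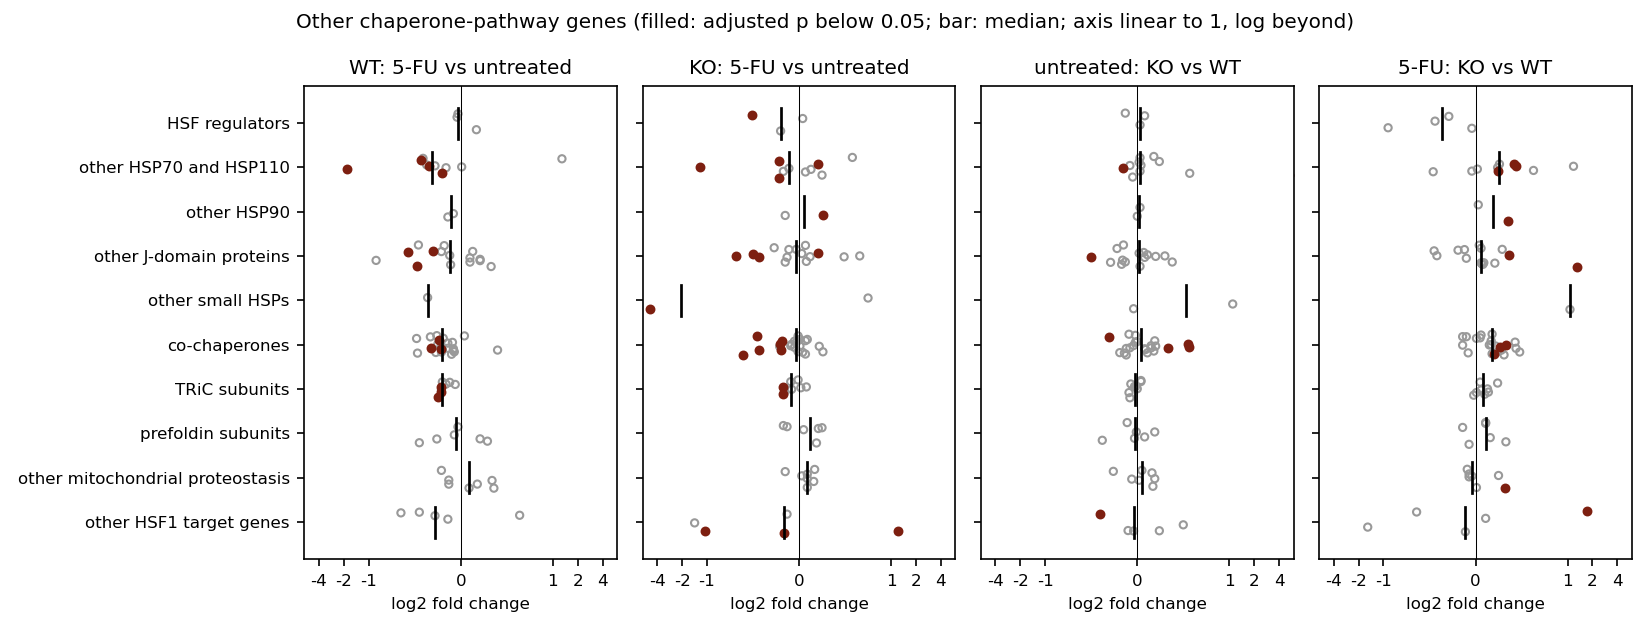
Log2 fold changes of the other chaperone genes by list in the 4 comparisons, where each point is a gene tested, filled points have an adjusted p below 0.05 (edgeR) and bars are medians. The axis is linear to 1 and logarithmic beyond. Most filled points lie below 0 with 5-FU in both genotypes, and all 11 filled points lie above 0 for Tespa1-/- against Tespa1+/+ after 5-FU.

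The members did not vary as 1 block. Over the 12 libraries, which share 4 group means, the log2 levels of Hspa1a and Hspa1b had a Pearson r of 0.95, but the deviations of the libraries from their group means had an r of 0.02, so the likeness lay between groups. For Hspa8 with Hsp90ab1 the values were 0.93 and 0.56, for Hsp90aa1 with Hsp90ab1 0.67 and 0.67, and for Hspd1 with Hspe1 0.63 and 0.40. Dnajb1 with Hspd1 had 0.16 and -0.30. The genes outside the members whose levels over the 12 libraries were most like the mean of Hspa1a and Hspa1b, among 14927 genes compared, were Gm15542 (r of 0.98), Mpeg1 (0.969), Rps3 (0.966), Gm7816 (0.957) and Serpinf1 (0.957). For the mean of Hspd1 and Hspe1 they were Gm10175 (r of 0.907), Tmcc2 (0.904), CT010467.1 (0.892), Gnl1 (0.891) and Spcs1 (0.884). These likenesses are descriptions over libraries that fall into 4 groups.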

How the data were processed

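RNA-seq of LSKs from 4 groups of 3 libraries was used. The authors deposited, for 53465 genes, raw read counts and FPKM values, which are normalized by gene length and library total. The submitters' processing notes name CASAVA 1.8, HISAT2, StringTie, edgeR and GRCm38, and the counting tool's handling of strand and of reads with several matches is not given in the sources used here. Groups came from the labels. Analyses used R 4.3.3, edgeR 4.0.16, DESeq2 1.42.0, Python 3.11.15, NumPy 2.4.6, pandas 2.3.3, SciPy 1.17.1 and matplotlib 3.10.9.

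From the deposited counts, genes were filtered by filterByExpr (minimum count 10), scaled by TMM and tested by edgeR's quasi-likelihood test on the 6 libraries of each comparison, or on all 12 for the interaction, with Benjamini-Hochberg adjustment over all genes and a threshold of 0.05. A second rule, that of the study, required P below 0.05 before adjustment and more than a 1.5-fold change. CPM used TMM factors (0.9835 to 1.023) over 12 libraries. Between genes, levels were compared by FPKM. The exact permutation test used log2(CPM + 1). Transcripts of GENCODE M21 were compared in words of 50 bases. Promoters were matched by symbol, and 7 of the 10 genes had an entry.

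Genes named beside the members were, per list and comparison, up to 3 called in each direction with the largest absolute log2 fold change and at least 1 CPM, and, for likeness, the 5 with the highest Pearson r. Copies were named after their values were seen. The members and lists were chosen with earlier results of these data known. Alternatives were DESeq2, RLE factors, library totals, no filter, at least 10 counts in every library, the replicate block, each library left out, all 12 libraries in 1 fit, the study's rule, Hspa1a and Hspa1b summed and, chosen after seeing the data, copies summed. The tests were tried on simulated data. Same-numbered libraries did not deviate together over the genes tested (correlations of -0.07 to 0.03), so no pairing by number was seen. A shared effect on few genes could be missed this way. Libraries after irradiation were not analysed here. The result for 1 listed gene is not reported here.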

Additional observations from a re-analysis of the deposited data

How the results depend on the processing

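Leaving out each library in turn gave 2 members in every fit called higher in untreated Tespa1-/- LSKs, 1 to 2 after 5-FU, 5 to 7 called lower with 5-FU in Tespa1+/+, 6 in Tespa1-/-, and 0 to 1 upward interactions. Members called higher in Tespa1-/- after 5-FU, 1 as reported, were 4 with DESeq2, 2 with the replicate block (Hsp90aa1 added, adjusted p = 0.0393, edgeR), 2 with Hspa1a and Hspa1b summed, 5 with copies summed, 2 with all 12 libraries in 1 fit and 0 by the study's rule. Over all genes those settings called 1627, 970, 1266, 1265, 1491 and 999 higher, in that order, against 1265 as reported. In untreated LSKs the count of 2 was 1 with all 12 libraries in 1 fit and 1 by the study's rule. By that rule 2 members fell with 5-FU in Tespa1+/+ and 3 in Tespa1-/- LSKs, since the other falls were under 1.5-fold. Other counts of members stayed within 1.5 times of those reported, and the block changed no other call of a member, while that of Tespa1 in untreated LSKs was lost with it (-0.41, adjusted p = 0.0908, edgeR). The labels tie the replicate numbers to no shared mouse or day, and the block took the genes called in untreated LSKs from 280 to 116 higher and from 612 to 338 lower.

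Changes of sign were confined to values that were not called as reported. In untreated LSKs Hspa8 was 0.00 with DESeq2, RLE factors or at least 10 counts in every library, 0.01 on library totals, 0.15 with copies summed and -0.03 to 0.03 with a library left out. There Hsp90aa1 with copies was 0.08, Hsp90ab1 was 0.00 (below 0 before rounding) without a filter and -0.02 to 0.06 with a library left out, and Hspe1 was -0.02 without a filter and -0.08 to 0.08 with a library left out. With 5-FU in Tespa1-/- LSKs Hspd1 was 0.01 on library totals, 0.03 with copies, 0.00 with all 12 libraries and -0.04 to 0.01 with a library left out, and Hspe1 -0.18 to 0.06. Hspb1 ran from -0.35 to 0.93 with 5-FU in Tespa1+/+ LSKs. The interaction ran from -0.06 to 0.24 for Hspa1b and from -6.06 to 3.92 for Hspb1, and was -0.03 for Hspa8 with copies. The causes were not tested.

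Over all genes, leaving out a library gave 82 to 288 higher and 250 to 520 lower in untreated Tespa1-/- LSKs and 370 to 521 higher and 413 to 581 lower with 5-FU in Tespa1+/+ LSKs. DESeq2 called 528 higher in untreated Tespa1-/- LSKs (280 reported), 1003 higher with 5-FU in Tespa1+/+ LSKs (641) and 869 upward and 666 downward interactions (564 and 372). All 12 libraries in 1 fit called 1030 higher and 1083 lower with 5-FU in Tespa1+/+ LSKs (641 and 711). By the study's rule 603 were higher in untreated Tespa1-/-, 1077 higher with 5-FU in Tespa1+/+, and 1163 interactions downward. Of the other chaperone genes, alternatives other than leaving out a library gave 3 to 16 higher in Tespa1-/- after 5-FU (11), 3 to 20 lower with 5-FU in Tespa1+/+ (13) and 7 to 19 lower in Tespa1-/- LSKs (19). With 3 libraries a group, p-values rest on few residual degrees of freedom, and Hspb1 was near the detection limit.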
